A study of Mus musculus with 4 samples.

Results

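The subunits and adaptors of the kinase complexes that carry Toll-like receptor signals to NF-kB and to the interferon regulatory factors were measured as RNA in mouse bone-marrow-derived macrophages. The set holds 10 genes, chosen by name from the 55536 annotated genes of the tables: the IKK complex genes Chuk, Ikbkb and Ikbkg, the kinase genes Ikbke and Tbk1, the TBK1 adaptor genes Tank and Azi2, and the TAK1-binding protein genes Tab1, Tab2 and Tab3. The rule for the choice used no measured value, although earlier results of these data were known, and each name matched 1 gene.

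In this pathway, receptors such as TLR4, which recognises the lipid A part of bacterial lipopolysaccharide, lead to ubiquitin chains on which kinases assemble. TAB2 and TAB3 hold the kinase TAK1 on these chains, and TAK1 phosphorylates the IKK complex, which then marks the inhibitors of NF-kB for destruction. On the branch that runs through the adaptor TRIF, the related kinases TBK1 and IKK-epsilon are brought in by adaptors such as TANK and NAP1, and they phosphorylate IRF3 and IRF7. In macrophages these steps set the early cytokine and interferon response.

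The 4 libraries form a single group of macrophages grown from the bone marrow of C57BL/6J mice. Cells had 100 ng/mL Lipid A for 12 h, a washout of 12 h, and 100 ng/mL Lipid A again for 60 min, per the sample descriptions; the source names and treatment fields call the agent lipoprotein A and do not list the washout. Sex and age were not recorded. All 4 samples cite the same donor record of the strain, and nothing beyond their biological replicate numbers shows whether they came from separate animals, so the spread given here may be in part technical. The group has no untreated or single-dose cells, so no level here is a response to Lipid A. Polyadenylated RNA was sequenced from 1 µg of RNA a library. Expected counts on genes came to 23167140 to 41453162 a library, and a count of 0 would allow up to 3 counts, or 0.0724 to 0.129 CPM (counts scaled to library size), counting error only. The macrophage markers were all detected (8 of 8), with summed levels of 16692 to 19219 TPM (abundance per transcript length, on 1 scale in each library). Of 20 markers of other cell types, 2 reached 1 TPM in each library, the neutrophil genes S100a8 and S100a9. S100a8 stood at 49.3, 5.58, 34.0 and 5.69 TPM in replicates 1, 2, 3 and 4, while Ly6g, which defines neutrophils, had no count. By edgeR S100a8 and S100a9 varied between libraries, with an adjusted p of 4.96e-06 and 4.76e-11. In replicate 3 alone the stroma genes Col1a1 and Col1a2 passed 1 TPM, at 1.09 and 1.49 TPM (182 and 224 counts). RNA of bulk cells was measured, so fewer cells of a type and less RNA per cell cannot be told apart.

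All 10 genes were detected, with at least 1 TPM in each library. Their median level over the set was 55.1 TPM, beside 17.2 TPM over the 10407 genes detected in the same way. The order of mean levels ran from Ikbke through Tank, Tbk1, Azi2, Tab2, Ikbkb, Chuk, Ikbkg and Tab1 to Tab3. Ikbke alone stayed at 100 TPM or more in each library, as did 10.5% of detected genes. Summed by role, TBK1 and IKK-epsilon RNAs made up 43.9% ± 1.46 of the TPM of the 10 genes, the adaptors 29.5% ± 2.99, the IKK complex 15.3% ± 1.51 and the TAB proteins 11.4% ± 0.928 (SD, n = 4).

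**Figure D1:**
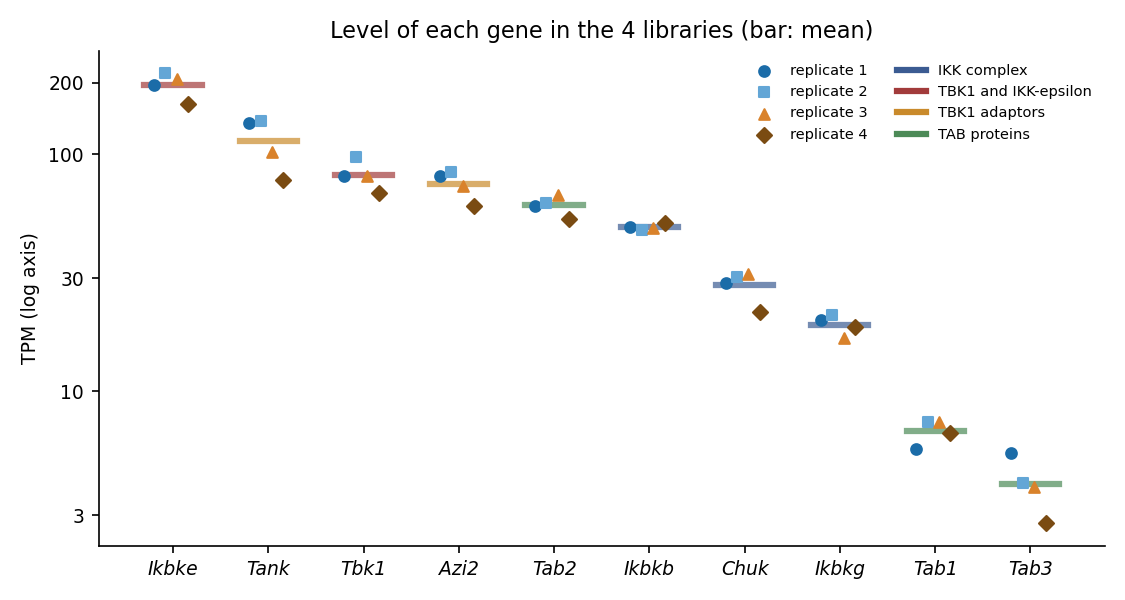
TPM of each of the 10 genes on a log axis, one point per library and a bar at the mean of 4, coloured by role. Ikbke lies highest, at 163 to 219.5 TPM, and Tab1 and Tab3 lie lowest, at 2.78 to 7.45 TPM. Replicate 4 is the lowest point in 7 of the 10 genes, and is the lowest library for 24.3% of detected genes.

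The IKK complex joins the catalytic subunits IKK-alpha, made from Chuk, and IKK-beta, made from Ikbkb, to NEMO, the regulatory subunit made from Ikbkg that binds ubiquitin chains. Ikbkb (ENSMUSG00000031537.15, chr8:22659212-22706589, minus strand, mm10) stood at 49.1, 48.0, 48.9 and 51.1 TPM in replicates 1, 2, 3 and 4, a mean of 49.3 ± 1.32 TPM (SD, n = 4). The values lay within a narrow band in which no library stood apart. Chuk (ENSMUSG00000025199.16, chr19:44073335-44107480, minus strand) stood at 28.7, 30.4, 31.4 and 21.6 TPM, a mean of 28.0 ± 4.44 TPM (SD, n = 4), with replicate 4 the lowest. Ikbkg (ENSMUSG00000004221.16, chrX:74393290-74453854, plus strand) stood at 19.95, 21.1, 16.8 and 18.8 TPM, a mean of 19.1 ± 1.84 TPM (SD, n = 4), with replicate 3 the lowest. The ranges of these 3 genes did not overlap: NEMO RNA was below the RNA of both catalytic subunits in 4 of 4 libraries. Counts behind them ran from 1744 to 3204 for Ikbkb, 1327 to 2667 for Chuk and 1011 to 1944 for Ikbkg.

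Much of the Ikbkb level came from a short transcript without a coding sequence. Ikbkb-201, the leading transcript (3580 bases, 757 codons), carried 53.5% ± 3.75 of the gene's TPM, and Ikbkb-213, a processed transcript of 601 bases, carried 37.6% ± 5.87 (SD, n = 4). In replicates 1, 2, 3 and 4 the share of Ikbkb-213 was 41.1%, 30.4%, 35.3% and 43.4%, so it was never the larger of the pair. Because TPM divides by length, this share rested on few reads: Ikbkb-213 had 124, 77.7, 166 and 178 expected counts in replicates 1, 2, 3 and 4, which was 5.93% of the gene's counts on average, against 1433 to 2630 for Ikbkb-201. Both transcripts share their second exon, and Ikbkb-213 then ends in an exon of 422 bases at chr8:22702452-22702873, which lies inside the second intron of Ikbkb-201. Ikbkb-212, a transcript with a retained intron that runs from 22706563 to 22702008 in 2 exons, spans the same stretch. Reads inside the stretch therefore need not come from Ikbkb-213. The bases across the end of the second exon are shown for Ikbkb-213 and Ikbkb-201 because reads over this junction tell these 2 transcripts apart. Capitals mark the start of the third exon.
Ikbkb-213: cggtggcacaatcagGTTCTTGAGAGGAAG
Ikbkb-201: cggtggcacaatcagGCGACAGGTGAACAG
Over protein-coding transcripts alone, Ikbkb stood at 25.9, 29.0, 28.3 and 26.8 TPM in replicates 1, 2, 3 and 4, a mean of 27.5 ± 1.38 TPM, and Chuk at 24.6, 24.9, 27.0 and 19.5 TPM, a mean of 24.0 ± 3.18 TPM (SD, n = 4 each). The 2 ranges then overlapped, which they did not over all transcripts.

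Chuk RNA was mostly full-length, with a second coding form that differs near the 3′ end of the coding part. Chuk-201 carried 68.0% ± 2.25 and Chuk-202 18.0% ± 2.34 of the gene's TPM (SD, n = 4), and transcripts with a retained intron 14.0% ± 3.53. The share of Chuk-202 was 15.9%, 16.1%, 19.6% and 20.4% in replicates 1, 2, 3 and 4, below Chuk-201 in each. The forms differ at a donor site, where an exon of Chuk-202 ends 17 bases earlier on the minus strand, at position 44077263 against 44077246, and their annotated coding parts hold 719 codons in Chuk-202 and 745 in Chuk-201. The 17 bases, which shift the reading frame of what follows, are in capitals.
Chuk-202: tgtgtgagagac
Chuk-201: tgtgtgGTAACTCCTCAAGATGGagagac
The end of IKK-alpha that lies beyond this site is known to hold its short NEMO-binding stretch.

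Ikbkg was the gene of the set whose leading transcript changed between libraries. Ikbkg-202 (4530 bases) carried 29.4%, 37.9%, 53.1% and 49.1% of its TPM in replicates 1, 2, 3 and 4, and Ikbkg-203 (3332 bases) carried 41.2%, 27.7%, 23.6% and 34.0%. Ikbkg-202 led in 3 of 4 libraries and Ikbkg-203 in replicate 1, and in the second quantification, which was made directly from the reads, Ikbkg-203 led on average, with 38.7% against 30.5% for Ikbkg-202. The pair start at nearby bases, 74429704 and 74429671, and the transcripts from this start site together carried 78.2% ± 5.41 of the gene's TPM (SD, n = 4). Ikbkg-202 and Ikbkg-203 differ in the place where the 3′ end lies, at 74451520 and 74450286. They also differ at an acceptor 3 bases apart, which gives coding parts of 411 and 412 codons. Capitals mark the added codon's bases.
Ikbkg-202: aaatgccaacagatggctgaggac
Ikbkg-203: aaatgccaacagCAGatggctgaggac
The exons of Ikbkg share 418 of 8110 bases with those of G6pdx, a gene of glucose metabolism on the opposite strand that stood at 82.4 to 153 TPM. Whether the counting used strand is not given in the sources used here, so reads in these shared bases cannot be assigned with certainty.

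TBK1 and IKK-epsilon are close relatives that phosphorylate the interferon regulatory factors. Ikbke (ENSMUSG00000042349.13, chr1:131254343-131279606, minus strand) stood at 196, 219.5, 208 and 163 TPM in replicates 1, 2, 3 and 4, a mean of 197 ± 24.6 TPM (SD, n = 4). Tbk1 (ENSMUSG00000020115.3, chr10:121546455-121586787, minus strand) stood at 81.0, 97.6, 80.7 and 68.6 TPM, a mean of 81.9 ± 11.9 TPM (SD, n = 4). In both genes replicate 2 was the highest and replicate 4 the lowest, and the ranges did not overlap. Ikbke exceeded 93.1% of detected genes in mean TPM and Tbk1 exceeded 84.6%. Ikbke had 8477 to 14616 counts a library, the most of the set, and Tbk1 had 3527 to 6007.

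Tbk1 RNA was mostly of 1 form: Tbk1-201 (3024 bases, 729 codons) carried 86.6%, 81.5%, 89.8% and 90.1% of its TPM in replicates 1, 2, 3 and 4. Transcripts with a retained intron made up most of the rest, 12.2% ± 4.11 (SD, n = 4). In the second quantification Tbk1-201 held 76.5% ± 7.47 (SD, n = 4), with 65.9% in replicate 2. In the first, Tbk1-201 had 97.4% ± 0.799 of the gene's counts (SD, n = 4). Ikbke-201 (3251 bases, 717 codons) carried 63.9% ± 6.44 of Ikbke, and Ikbke-204, which starts downstream at 131276951 in place of 131279606 and holds 693 codons, carried 16.8% ± 1.88 (SD, n = 4). The share of Ikbke-201 was 65.2%, 64.8%, 55.0% and 70.4% in replicates 1, 2, 3 and 4, with replicate 3 the lowest. Exons of Ikbke share 65 and 159 of 9018 bases with 2 antisense genes, whose levels were 6.35 and 1.22 TPM on average.

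TANK and NAP1, which Azi2 encodes, are scaffold proteins that bind TBK1 and IKK-epsilon. Tank (ENSMUSG00000064289.15, chr2:61578585-61654171, plus strand) stood at 136, 138, 103 and 77.7 TPM in replicates 1, 2, 3 and 4, a mean of 114 ± 29.0 TPM (SD, n = 4). Replicates 1 and 2 were close to each other and above replicate 3, and replicate 4 was the lowest. Azi2 (ENSMUSG00000039285.12, chr9:118040499-118069794, plus strand) stood at 81.0, 84.3, 73.8 and 60.5 TPM, a mean of 74.9 ± 10.6 TPM (SD, n = 4), in the same order of libraries. The 2 ranges overlapped, although Tank was above Azi2 within each library.

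Tank was made in 3 forms of some weight, and the share of the leading form differed little between libraries. Tank-205 (447 codons) carried 48.0%, 50.2%, 47.4% and 48.5% of its TPM in replicates 1, 2, 3 and 4. Tank-201 (448 codons) carried 21.3% ± 2.01 and Tank-202 (360 codons) 15.5% ± 2.35 (SD, n = 4). So a level that differed 1.78-fold between the highest and the lowest library went with nearly the same share of the leading form. Tank-205 and Tank-201 differ by an acceptor 3 bases apart, at 61626906 and 61626903, where Tank-201 holds 1 more codon, in capitals; Tank-202 has the acceptor of Tank-205.
Tank-205: ctacagcaaaagactgagaactat
Tank-201: ctacagcaaaagCAGactgagaactat
A pair of transcripts that differ by 3 bases share nearly all reads, so their split is an estimate of the program.

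Tank also used a pair of first exons about 14.6 kb apart. Transcripts from the upstream start carried 74.8%, 74.3%, 69.5% and 74.6% of the gene's TPM in replicates 1, 2, 3 and 4, and those from the downstream start carried 22.9%, 22.1%, 26.7% and 23.2%. The upstream start was thus the main one in each library, with replicate 3 the lowest. The 250 bases before each start are printed because both were in use; they are RefSeq windows on GRCm38.p6, plus strand, chr2:61578336-61578585 for the upstream and chr2:61592847-61593096 for the downstream start, and capitals mark a match to the NF-kB consensus.
Tank upstream start: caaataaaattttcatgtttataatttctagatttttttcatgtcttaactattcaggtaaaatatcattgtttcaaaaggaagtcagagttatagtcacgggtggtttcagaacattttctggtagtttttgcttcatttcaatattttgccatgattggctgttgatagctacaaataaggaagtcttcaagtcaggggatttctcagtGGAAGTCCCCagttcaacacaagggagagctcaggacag
Tank downstream start: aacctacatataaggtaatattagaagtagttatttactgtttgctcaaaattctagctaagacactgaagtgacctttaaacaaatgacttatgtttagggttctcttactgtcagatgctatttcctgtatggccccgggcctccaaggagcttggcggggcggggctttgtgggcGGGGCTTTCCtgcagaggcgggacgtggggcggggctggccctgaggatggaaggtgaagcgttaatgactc
The consensus was searched on both strands of 300-base windows that reach 50 bases past the start; it was found in 4 of the 15 windows of the set, all of them windows of Tank, overlapping in pairs, and in 8.46% of 32851 windows of all genes. The interferon-response core GAAANNGAAA, searched likewise, was in 0 of the 15 windows and in 3.44% of all. Windows were listed for 8 of the 10 genes, not for Ikbkb or Tab1. A match describes these letters only.

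Azi2-201 (405 codons) carried 65.4% ± 1.58 of Azi2, and Azi2-204, annotated with an incomplete end, 13.1% ± 3.68 (SD, n = 4). In the second quantification Azi2-201 held 48.3% ± 3.30, so its share depended on the method, but it led in each library by both.

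The TAB proteins connect TAK1 to its upstream signals: TAB1 activates the kinase directly, and TAB2 and TAB3 bind ubiquitin chains. Tab2 (ENSMUSG00000015755.16, chr10:7905653-7956230, minus strand) stood at 60.5, 62.1, 67.6 and 53.2 TPM in replicates 1, 2, 3 and 4, a mean of 60.8 ± 5.94 TPM (SD, n = 4). Tab1 (ENSMUSG00000022414.8, chr15:80133127-80161707, plus strand) stood at 5.74, 7.45, 7.39 and 6.68 TPM, a mean of 6.82 ± 0.797 TPM, and Tab3 (ENSMUSG00000035476.9, chrX:85574022-85634469, plus strand) at 5.50, 4.11, 3.95 and 2.78 TPM, a mean of 4.09 ± 1.11 TPM (SD, n = 4 each). Tab2 was far above both in every library. Tab1 and Tab3, with mean levels above those of only 25.3% and 14.9% of detected genes, rested on 277 to 566 and 345 to 711 counts. Map3k7, the gene of TAK1 itself, which is no member and was named here because the TAB proteins bind its product, stood at 12.0, 13.7, 14.9 and 12.8 TPM. Its 4 values lay below those of Tab2 and above those of Tab1 and Tab3.

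Each TAB gene had a single main form. Tab2-204 (4380 bases, 693 codons) carried 95.1% ± 0.806 and Tab1-201 (2964 bases, 502 codons) 97.9% ± 2.41 of its gene's TPM (SD, n = 4). Tab3-201 (6364 bases, 716 codons) carried 66.3%, 88.6%, 100% and 96.2% in replicates 1, 2, 3 and 4. In replicate 1, 26.1% of Tab3 went to Tab3-204, a processed transcript of 360 bases, which had 3 of the gene's 401 counts there and none in the other libraries. Over protein-coding transcripts alone Tab3 stood at 4.06, 4.11, 3.95 and 2.78 TPM, so that replicate 1, the highest over all transcripts, was then level with replicates 2 and 3.

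**Figure D2:**
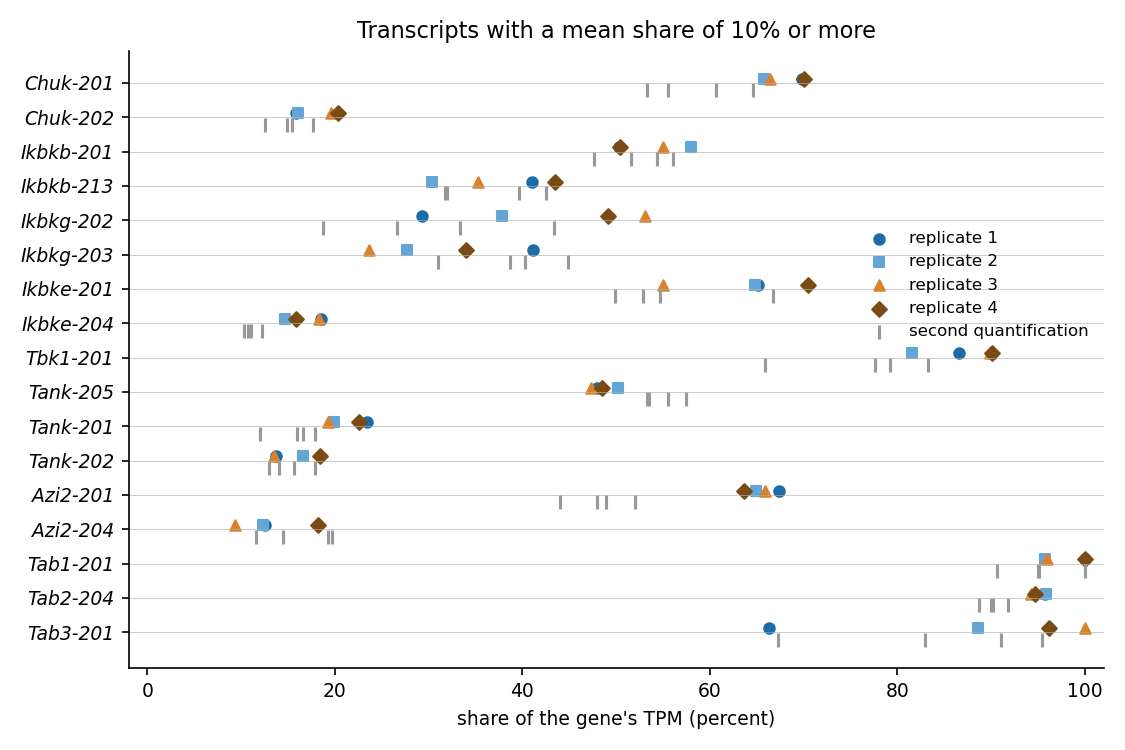
Share of the gene's TPM in percent for the 17 transcripts with a mean share of 10% or more, with coloured points for the 4 libraries in the first quantification and grey ticks for the same libraries in the second. The shares of Ikbkg-202 and Ikbkg-203 cross between libraries, at 29.4% to 53.1% and 23.6% to 41.2%, while Tank-205 stays within 47.4% to 50.2%.

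Setting the levels in order, neighbours were compared within libraries on the log2 scale, and 8 of 9 steps kept their direction in 4 of 4 libraries with a mean above their SD. The exception was Tbk1 and Azi2, whose log2 difference was 0.13 ± 0.09 (SD, n = 4) and was positive in 3 of 4 libraries, so these did not differ beyond their spread by the rule used. The step from Tab1 to Tab3 was 0.06, 0.86, 0.90 and 1.26 on the log2 scale in replicates 1, 2, 3 and 4 and was thus smallest in the library with the 3 counts on Tab3-204.

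Related genes were also compared as 7 pairs, on log2(TPM + 0.1) within each library. Ikbke was above Tbk1 by 1.17 to 1.37, a mean of 1.26 ± 0.08, or 2.40-fold. Tank was above Azi2 by a mean of 0.57 ± 0.19, or 1.49-fold. Tab2 was above Tab1 by a mean of 3.14 ± 0.18, or 8.83-fold, and above Tab3 by a mean of 3.90 ± 0.33, or 14.9-fold (SD, n = 4 for each pair). These 4 pairs kept nearly the same size over protein-coding transcripts, at 1.25, 0.67, 3.16 and 3.99. Within the IKK complex, Ikbkb was above Chuk by a mean of 0.83 ± 0.28, and Ikbkg was below Chuk (mean difference -0.54 ± 0.29) and below Ikbkb (-1.37 ± 0.16; SD, n = 4 each). Over protein-coding transcripts these 3 differences were 0.20 ± 0.18, -0.32 ± 0.26 and -0.53 ± 0.16 (SD, n = 4 each), so the 1.77-fold excess of Ikbkb over Chuk became 1.15-fold. Every pair had the same direction in 4 of 4 libraries, and the exact two-sided sign-flip permutation test gave p = 0.125 for each, also after Benjamini-Hochberg adjustment over the 7 pairs; that is the smallest p that 4 libraries allow, so no pair could reach 0.05.

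**Figure D3:**
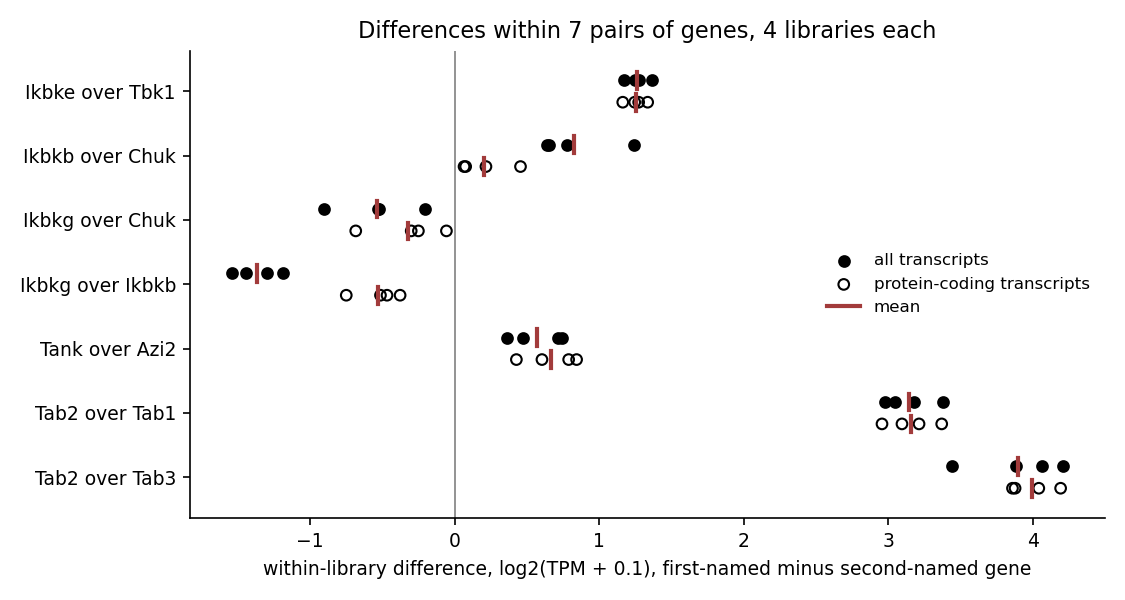
Within-library differences in log2(TPM + 0.1) for the 7 pairs, first-named minus second-named gene, with filled points for all transcripts, open points for protein-coding transcripts and a red line at each mean. The Ikbkb over Chuk points move from a mean of 0.83 to 0.20 when protein-coding transcripts alone are counted, and the Ikbke over Tbk1 points stay near 1.26.

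None of the set was called variable between libraries. All 10 genes passed the filter on low counts. By edgeR, each gene's deviance between libraries was set against that of genes of like abundance. At an adjusted p of 0.05, 0 of the 10 genes were called, where 305 of 11679 tested genes (2.61%) were. An unadjusted edgeR p under 0.05 was found for 0 of the 10 genes and for 910 of the 11679. None of the 10 genes was called with the dispersion trend of DESeq2. In CPM after TMM scaling, their median coefficient of variation was 10.2%, beside 15.8% over all tested genes. The coefficients were not compared with those of genes of like abundance, and the set had the higher median level (55.1 against 17.2 TPM over detected genes). Ikbkb, at 74.7, 73.2, 72.6 and 70.3 CPM in replicates 1, 2, 3 and 4, had the lowest coefficient, 2.50%, and 0.479% of tested genes had a lower one. Tank, at 185, 165, 124 and 99.6 CPM, had the highest, 27.0%, with an edgeR adjusted p of 0.823. Replicate 4 was the lowest library in 8 of the 10 genes on this scale, where it was the lowest for 25.7% of all tested genes. By TPM it was the lowest in 7 of 10 (24.3% of detected genes), while replicate 1 was the lowest for 48.4% of detected genes. In the second quantification replicate 4 was the lowest in 4 of 10 (8.28% of detected genes), and replicate 2 in another 4 (39.3%). The count for replicate 4 thus depended on the method, but it was above the share of all genes on each of these scales. Mitochondrial genes held 3.99% of TPM in replicate 4 and 1.94% to 4.77% over the libraries. Ribosomal RNA held 7.14% of TPM in replicate 1 and 2.73%, 1.29% and 2.69% in replicates 2, 3 and 4. The part of RNA quality in these differences was not tested.

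**Figure D4:**
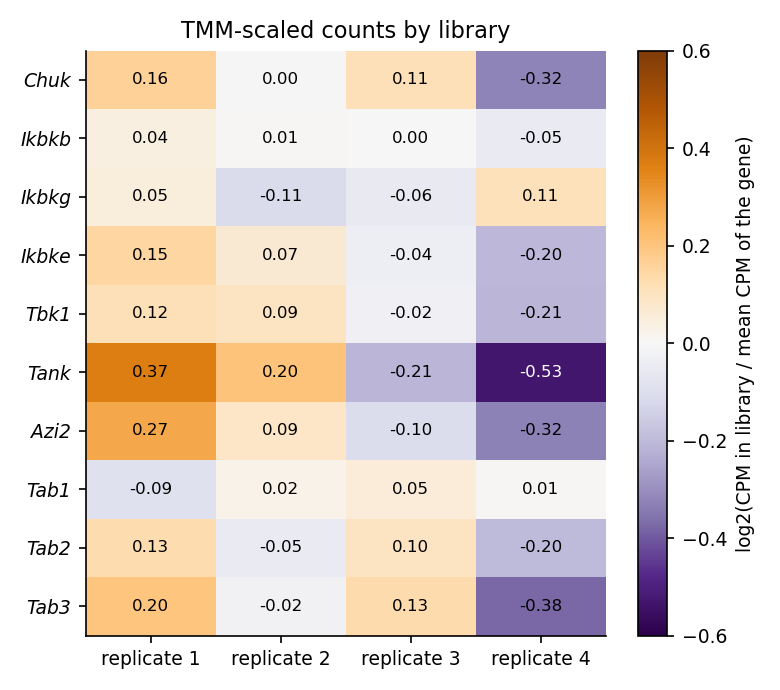
log2 ratio of each gene's TMM-scaled CPM in a library to its mean over the 4 libraries, genes in rows and libraries in columns, orange for above and purple for below the mean. Tank spans 0.37 in replicate 1 to -0.53 in replicate 4, and Ikbkb stays within 0.05 of its mean.

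Replicates 3 and 4 were recorded with 4 read files each and replicates 1 and 2 with 6 each, and the libraries with 4 files also had the larger counts, 41453162 and 34946569 against 26613690 and 23167140, so number of files and depth cannot be told apart. Between these, edgeR's quasi-likelihood test called 0 of 12667 genes (0%), with 897 genes at an unadjusted p under 0.05. DESeq2 called 95 of 14515 genes, none of them in the set. Tank, with 124 and 99.6 CPM in the libraries of 4 files and 185 and 165 CPM in those of 6, had a log2 difference of -0.64 ± 0.19 (SE). By edgeR's quasi-likelihood test its adjusted p over all genes was 0.641, and 0.0136 unadjusted. Azi2 followed Tank with 117 and 100.2 CPM against 152 and 133 CPM. Its log2 difference was -0.39 ± 0.17 (SE), with an edgeR adjusted p of 0.711. The groups of libraries did not overlap for Tank, nor for Azi2, Ikbke, Tbk1 and Ikbkb. The share of all genes without overlap was not counted, so this says nothing particular of the set. For Ikbkb the log2 difference was only -0.045 ± 0.141 (SE).

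The second quantification put the 10 genes lower than the first, at a median of 43.9 against 55.1 TPM. The second was lower than the first by a median of 0.29 on the log2 scale over all tested genes, most in replicates 1 and 2 (-0.41 and -0.59) and least in replicates 3 and 4 (-0.04 and -0.13). By limma, 1862 of 12299 genes (15.1%) differed at an adjusted p of 0.05 with a log2 difference of 0.5 or more. Of the 10 genes, 0 did. An unadjusted limma p under 0.05 was found for 3 of the 10 genes and for 6887 of the 12299. The largest mean difference was that of Ikbkb, -0.37 ± 0.15 (SE), with a limma adjusted p of 0.0400 but short of the size asked. Relative to the median shift, the differences of the set lay between -0.08 for Ikbkb and 0.24 for Azi2. With differences centred on each library's median, the limma adjusted p was 0.00182 for Azi2, 0.00339 for Ikbke and 0.0130 for Ikbkg. It was 0.0268 for Ikbkb and 0.0327 for Tbk1, and above 0.05 for the rest of the set. None reached the size asked.

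**Figure D5:**
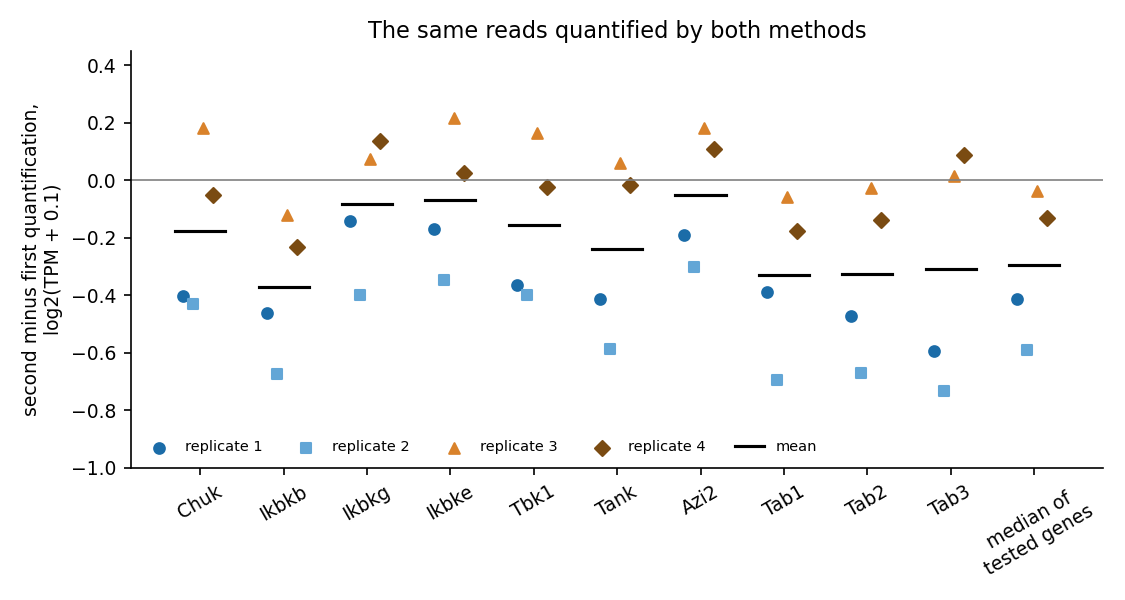
Second minus first quantification in log2(TPM + 0.1) for each gene and library, with a black line at the mean of 4, and the median over all tested genes at the right. The points of replicates 1 and 2 lie below those of replicates 3 and 4 in each gene, and the same is seen in the median of all tested genes.

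Of 43 other genes of the pathway, listed by name for their roles, all 43 were detected, with a median of mean levels of 36.3 TPM; by edgeR 0 of the 43 varied between libraries beyond genes of their abundance (2.61% of tested genes did). Among 12 adaptors and receptor-proximal kinases, Myd88, the main adaptor of Toll-like receptors, was the highest at 157 ± 12.9 TPM and Tirap, which brings it to TLR4, the lowest at 4.67 ± 0.766 TPM. Among 7 ubiquitin enzymes Ube2n, which builds the chains that TAB2 binds, stood at 147 ± 8.43 TPM and the ligase gene Peli2 at 3.35 ± 1.33 TPM. Among 8 other kinases and binding partners Map3k8, the kinase upstream of ERK, stood at 49.7 ± 3.10 TPM and Tbkbp1, the third TBK1 adaptor, at 6.75 ± 1.11 TPM. Both adaptor genes of the set were thus at higher levels than Tbkbp1 in each library. Among 5 ubiquitin-editing regulators Tnfaip3, which encodes the inhibitor A20, stood at 507 ± 148 TPM and Spata2 at 16.9 ± 4.01 TPM. Among 11 substrates and transcription factors Irf7 was the highest at 2323 ± 360 TPM and Irf3 the lowest at 28.1 ± 3.73 TPM (SD, n = 4 for each gene). The RNAs of these 2 TBK1 targets thus lay at the opposite ends of that group.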

How the data were processed

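Polyadenylated RNA of 4 macrophage libraries of 1 group was analysed. The deposited text records name assembly mm10 and GENCODE M21; the programs are not given in the sources used here. Per the file headers, the first quantification gives expected counts, TPM and FPKM per gene and transcript and each transcript's share of its gene in percent, and the second, made directly from reads, gives estimated counts and TPM per transcript, summed here per gene. The deposited FPKM values were not used. Members, the list of 43 pathway genes, pairs and tests were chosen with earlier results of these data known. Of the 43, the highest and lowest of each role are named, and of transcripts those with a mean share of 10% or more. Tab3-204, Ikbkb-212 and Map3k7 were chosen after their values were seen.

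Expected counts were rounded. Count tests used edgeR 4.0.16, after its expression filter and TMM scaling with a trended dispersion, DESeq2 1.42.0 and limma 3.58.1 in R 4.3.3, adjusted over all tested genes by Benjamini-Hochberg at 0.05; methods were tested on simulated counts. Other steps used Python 3.11.15, pandas 2.3.3, scipy 1.17.1 and matplotlib 3.10.9. Gene and transcript coordinates and junction sequences come from GENCODE M21, whose transcript lengths match the files, and promoter windows from RefSeq. A start site's use is the summed share of transcripts that start within 150 bases of it. Alternatives changed the pseudocount (0.1), length scaling, normalisation, low-count filter, tool, quantification, transcripts counted and libraries.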

Additional observations from a re-analysis of the deposited data

Results flagged for a closer look

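Of 140 sets of 4 library values, 6 (4.29%) held a value far from the other libraries, and chance flags about 1 in 20 such sets. Tab3 gave 4 of them: the share of Tab3-204 in replicate 1, 26.1% in the first quantification and 26.4% in the second, the share of protein-coding transcripts there, 73.8%, and the protein-coding level in replicate 4, 2.78 TPM. The protein-coding share of Ikbkg was lowest in replicate 2, at 99.4%, and the share of the upstream Tank start was lowest in replicate 3, at 69.5%.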

How the results depend on the processing

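The 7 pairs kept their direction in 4 of 4 libraries with the second quantification and over protein-coding transcripts. With counts not divided by length 5 of the 7 did. The means of Ikbkg over Chuk (-0.28) and Tank over Azi2 (0.17) kept their sign, but replicate 4 went the other way in both. Pseudocounts of 1 and 0.01, or leaving out each library in turn, could not change a direction shared by all 4 libraries. None of the 10 genes was called in any alternative of the 3 tests across genes. The median level of the set, 55.1 TPM, was 43.9 TPM in the second quantification and 59.1 TPM without ribosomal RNA and mitochondrial genes. Of 9 steps in the order, 8 held in the main order and 4 with counts not divided by length. Counts of all genes called moved more. Between libraries, 305 genes varied, and 135 to 219 without one library (135 without replicate 1). By number of read files, 0 genes were called by edgeR, 95 by DESeq2, 35 without the low-count filter, 13 without replicate 2, 2 without replicate 3 and 0 without replicate 1 or 4. Between quantifications, 1862 genes differed, 2823 with no low-value filter and 1398 with differences centred on each library's median, an alternative chosen after seeing the data. The cause of these moves was not tested. Shares of leading transcripts moved by more than their SD in 8 of 10 genes in the second quantification. No paired analysis was possible because there is 1 group. With 4 libraries, exact tests could not reach 0.05, and Tab1, Tab3, Ikbkb-213 and the acceptor pairs rest on few or shared reads.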
